A study of Mus musculus with 23 samples.

Results

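The probes described here target long noncoding RNA intervals, stretches of the mouse genome that the array's design names by coordinates and not by gene. The array carried 16194 such interval probes, in 4610 named sets over 3543 intervals. Members were chosen by signal: 6258 of these probes (38.6%) were marked by the scanner software as well above background on 3 or more of the 23 arrays. These members lie in 2360 of the 3543 intervals (66.6%), with a median interval length of 9951 bp and a range from 90 to 533972 bp. The name of each set ends in F or R, and members were split into 2953 probes with suffix F, 3299 with suffix R and 6 with neither. The coordinates are of mouse build mm9, per the file headers, and no mm9 annotation was used, so no interval is assigned to a gene, exon or intron here. The detection calls chose the members, so detection itself is described below and not tested.

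Long noncoding RNAs are transcripts that do not code for a protein. Many are spliced and polyadenylated like messenger RNA, most are less abundant than messenger RNA, and their expression often differs strongly between cell types. In skeletal muscle, well-known examples such as H19 are imprinted or change with muscle cell differentiation, while most intervals on such arrays have no described role.

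RNA of the gastrocnemius, a calf muscle, came from C57BL/6J males and was measured on Agilent arrays with 1 dye. Mice entered at 5 months (adult) or 24 months (old) and are labelled 6 and 25 months at the end of 4 weeks of daily treadmill sessions. In high-intensity intermittent training (HIIT) the belt ran at 27 m/min for 2 min, 3 times a session, with pauses of 1 min at 5 m/min. In moderate-intensity continuous training (MICT) it ran at 13 m/min for 45 min without a pause. Sedentary mice were placed by the stopped treadmill, and all mice rested 12 h before the muscle was taken. The groups were adult sedentary, adult HIIT, old sedentary, old HIIT and old MICT with 4 arrays each, and adult MICT with 3 arrays (replicate 2 was not analysed here). The labels number the arrays of a group without tying each to a mouse, so the p-values measure the spread between arrays.

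Every array carried markers of muscle: all 14 listed muscle genes were above background on all 23 arrays. Markers of other cells varied between arrays. Each marker score is the median, over the tested genes of a list, of the log2 deviation from the adult sedentary mean. The score of 9 tested B and plasma cell genes was between 1.95 and 6.12 on old sedentary arrays. It was between 0.98 and 4.28 on old HIIT arrays and between -0.48 and 0.30 on the arrays of the other 4 groups. The score of 8 keratinocyte genes was 0.32, 8.24, 4.29 and 1.72 on old sedentary 1 to 4, 0.60, 5.16, 6.26 and 7.63 on old HIIT 1 to 4, and 6.71 on adult HIIT 3. That of 11 tested cell cycle genes lay between 1.28 and 4.41 on old sedentary arrays and between 0.48 and 1.93 on old HIIT arrays. In whole muscle, fewer cells of a type and less RNA per cell cannot be told apart. Each group filled 1 row of 1 slide: adult sedentary and adult HIIT were on slide 1, old sedentary and adult MICT on slide 2, and old HIIT and old MICT on slide 3. For comparisons across slides, slide and group cannot be told apart. No interval spot was saturated, no array was a copy of another, and the number of arrays limits the precision.

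Interval probes were dimmer and more often undetected than probes of annotated genes. Of 26732 probes of coding transcripts 73.9% passed the same detection rule, and of 1559 probes of annotated noncoding transcripts 42.7%. Signals are given as log2 intensity minus the array's 75th percentile, so 0 is that percentile. On this scale the median of the means over all arrays was -2.79 for the 6241 tested members. It was -1.96 for the 589 tested annotated noncoding features and 0.69 for the 14937 tested coding features. Annotated probes that share a gene symbol were reduced to the brightest of them, while members were not, so these medians are not fully alike. The median residual SD between arrays of a group was 0.40 for members, 0.31 for those above background on all arrays and 0.29 for coding features. Of the interval probes, 3172 were above background on all 23 arrays, 333 on exactly 3, 809 on exactly 2, 2415 on 1 and 6712 on none. Probes just inside the rule, on 3 arrays, had a median signal of -4.99, those just outside it, on 2 arrays, had -5.47, and those on all arrays had -1.06. Between the arrays, the number of interval probes above background ran from 3807 to 4702 in old sedentary muscle (median 4509) and from 4723 to 5628 in adult sedentary muscle (median 5132). Old sedentary arrays therefore lay below every adult sedentary array. In old HIIT muscle the count was 4726 to 6287 and in old MICT muscle 4629 to 5592. Coding probes showed no such gap, with 16959 to 18800 in old sedentary and 17445 to 18753 in adult sedentary muscle.

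The brightest members stayed far above the 75th percentile on every array. The probe with the highest mean, A_30_P01031448 in chr14:78924115-78938125 (F), had a mean log2 signal of 8.67 over 23 arrays and ranged from 8.04 to 9.26. The next was A_30_P01022075 in chr17:17481706-17482457 (R), with a mean of 8.66 and a range from 8.23 to 9.03. The other 8 of the top 10 had means from 7.86 to 8.36. For each named probe, the gene with the most similar profile over 23 arrays was looked up among 15465 genes as a description only. A_30_P01022075 was most like Oaz1, which encodes ornithine decarboxylase antizyme (Pearson r = 0.945). Another bright probe, A_30_P01030669 in chr7:108209996-108216032 (R), was most like Rps29, a ribosomal protein gene (r = 0.915). All arrays share 1 scaling, so such correlations have no p-value here.

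Probes that share an interval and a suffix tended to vary together, and those on opposite suffixes less so. Over 6761 pairs of tested members with the same interval and suffix the median Pearson r over the 23 arrays was 0.51, and over 4378 pairs on opposite suffixes it was 0.25. Restricted to probes above background on all arrays, the medians were 0.76 over 2730 pairs and 0.37 over 1207 pairs. Probes of 1 annotated gene gave 0.63 over 5668 pairs without that restriction and 0.69 over 4158 pairs with it. Members were found on both suffixes in 550 intervals and on only 1 of both designed suffixes in 400. The difference between the medians was not tested, and pairs that share a probe are not independent.

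The intervals with the most tested members were chr16:43623581-43642715 with 19, chr11:95627874-95640824 with 18, chr7:99879368-99889978 with 17, chr17:26911397-26917047 with 16 and chr11:3538125-3554450 with 15. In chr16:43623581-43642715 the mean of the 10 F probes lay between 1.46 and 2.92 on the 23 arrays, and that of the 9 R probes between -3.87 and -2.42. Levels of different probes also depend on how well each binds, so this gap is no measure of strand. The means of the F and R probes rose and fell together (r = 0.73), as they did in chr11:95627874-95640824 (r = 0.84) and chr17:26911397-26917047 (r = 0.84), but not in chr11:3538125-3554450 (r = -0.38). Among all intervals with members on both suffixes, the tightest pair was chr16:23992037-24001037 (r = 0.93). There the F mean ran from -2.74 to 2.01 within the adult sedentary group alone. No probe of that interval was called in any comparison.

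As a class, interval probes were lower in old sedentary muscle than in any other group, by more than coding probes were. The median deviation of the 6241 tested members from the adult sedentary mean was -0.38, -0.51, -0.11 and -0.38 on old sedentary 1 to 4, while coding features gave -0.15, -0.20, -0.01 and -0.07 on the same arrays. On the 4 adult sedentary arrays the members' deviation was 0.08, -0.16, 0.07 and 0.04. Old sedentary 1, 2 and 4 were below every other array, and old sedentary 3 lay within the range of the other groups. Old HIIT arrays were at 0.08, -0.15, -0.11 and 0.00, old MICT arrays at 0.05, 0.09, -0.04 and 0.05, and adult MICT arrays, which share a slide with old sedentary, at -0.04, -0.07 and 0.04. The lowest adult array was adult HIIT 3 at -0.33. Muscle marker scores were also low on old sedentary 1 and 2 (-0.57 and -0.61), old HIIT 2 (-0.58) and adult HIIT 3 (-0.50), and their part in the shift was not tested.

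**Figure D1:**
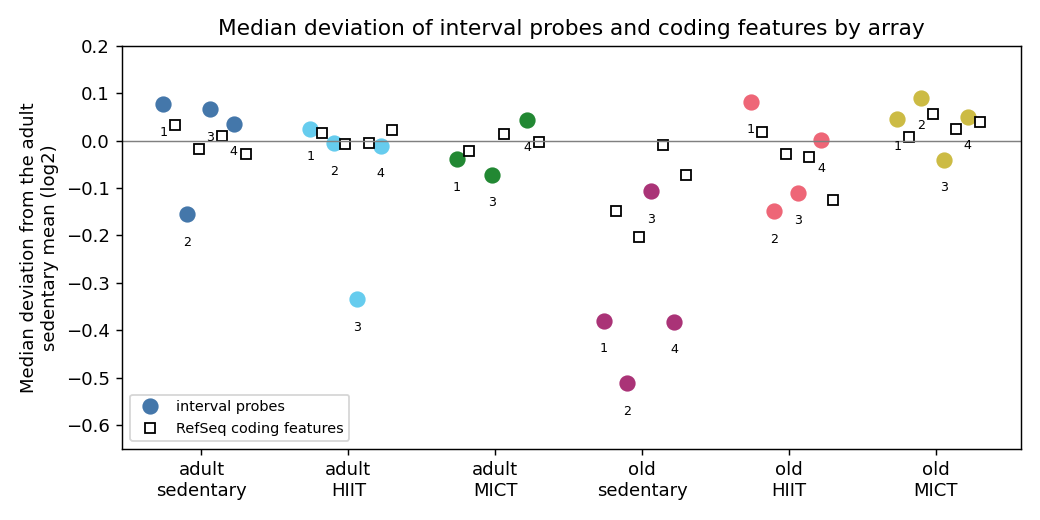
Median log2 deviation from the adult sedentary mean on each of 23 arrays, by group on the horizontal axis, for tested interval probes and for coding features. Old sedentary 1, 2 and 4 lie lowest for interval probes, at -0.38, -0.51 and -0.38.

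The shift was not limited to dim probes. In every brightness class from a mean of -5 upwards the median difference of interval probes between old and adult sedentary muscle lay between -0.42 and -0.30. Coding features of the same brightness ran from 0.26 in the class from -5 to -4 down to -0.17 above 1. Below -5 interval probes had a median of 0.13 and coding features one of 1.37. Between old MICT and old sedentary muscle the interval medians in the classes above -5 were between 0.30 and 0.51, while coding features ran from -0.36 to 0.26.

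**Figure D2:**
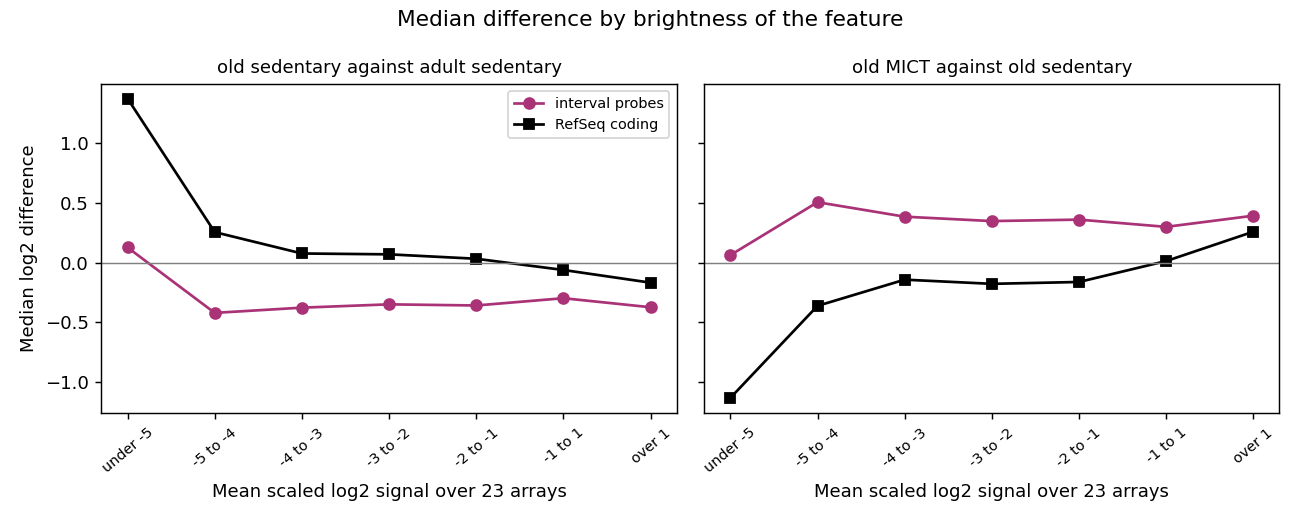
Median log2 difference (vertical axis) in classes of mean log2 signal over 23 arrays (horizontal axis), for interval probes (circles) and coding features (squares), in old against adult sedentary muscle and in old MICT against old sedentary muscle. Above -5 interval probes lie between -0.42 and -0.30 on the left and between 0.30 and 0.51 on the right.

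Differences between groups were tested with limma over all 27246 features with Benjamini-Hochberg adjustment, and a probe was called at an adjusted p under 0.05. Errors of differences are standard errors of the fit, and ± after a group mean is the SD over its arrays. Where no array of the dimmer group was well above background, a fold is written "at least". It sets the mean of the brighter group against, per array, the higher of the lowest signal called above background and the probe's own signal. The comparisons of old sedentary with adult sedentary, old HIIT and old MICT muscle share the 4 old sedentary arrays, so their results are not independent of each other.

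In the comparison of age, old sedentary muscle had lower signal than adult sedentary muscle at most interval probes that were called. Of 6241 tested members 785 were lower and 84 higher (13.9%), against 12.7% of all features, with 8.49% of all features lower and 4.22% higher. Among the 3162 members above background on all arrays, 482 were lower and 38 higher (16.4%), against 12.3% of features of that kind (9.15% lower, 3.13% higher). The share called is near the background, and the median difference was -0.35 for members, -0.16 for all features and -0.10 for coding features. The lower calls fell in 574 intervals and the higher calls in 55. Of 1579 named sets with at least 2 tested probes, 113 had at least 2 lower and 18 at least 2 higher. Scaled on the members' own median instead, an alternative chosen after seeing the data, 188 members were lower and 95 higher, so higher calls were 33.6% of the calls in place of 9.67%.

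**Figure D3:**
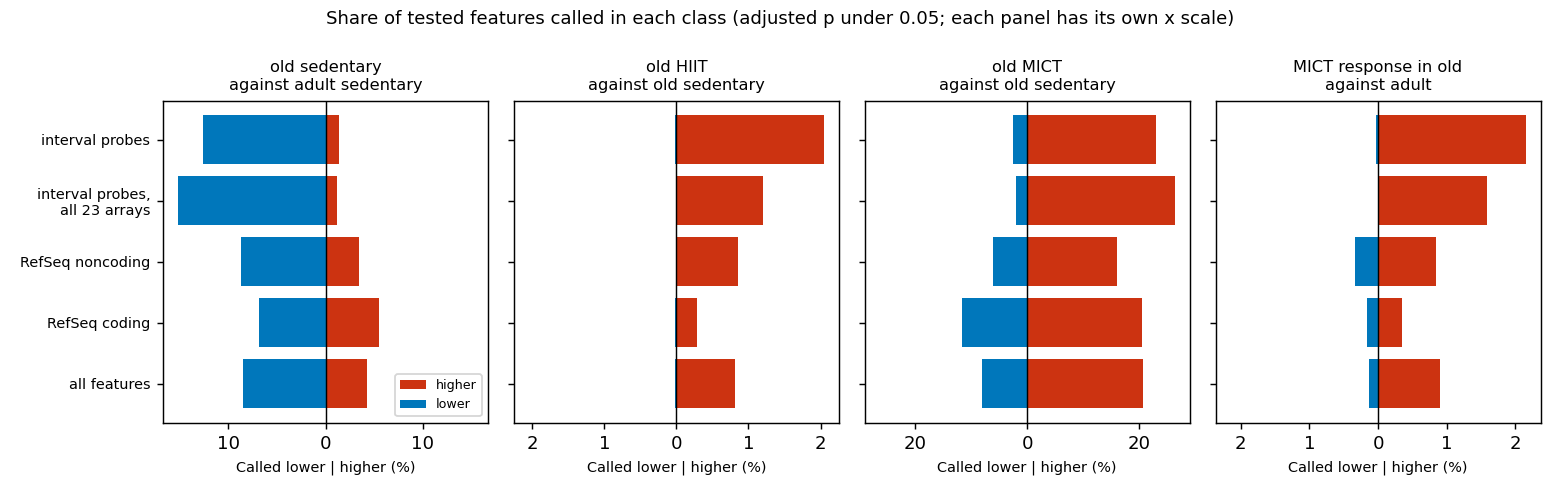
Percent of tested features called higher or lower (adjusted p under 0.05, limma) in each comparison, for interval probes, annotated noncoding and coding features. Of the interval probes, 13.9% were called with age and 25.6% in old MICT muscle, against 12.7% and 28.8% of all features.

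The named member with the smallest adjusted p between the ages was A_30_P01030101 in chr4:140609589-140614789 (F). Its log2 signal was -4.59, -4.56, -4.57 and -4.67 on old sedentary 1 to 4 and -2.31, -2.42, -2.76 and -2.34 on adult sedentary 1 to 4. No old sedentary array was above background and every adult sedentary array was, with no overlap. The difference was -2.14 ± 0.29 (means -4.60 ± 0.05 and -2.46 ± 0.21, n = 4 each, adjusted p = 0.00151), or at least 3.11-fold lower in old muscle. Without old sedentary 1 and 2 it was -2.16 (adjusted p = 0.0192), so the call did not rest on these arrays. The probe was most like Gabre, a GABA-A receptor subunit gene (r = 0.91).

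Several other members fell with age. A_30_P01024059 in chr17:29571806-29603008 (F), above background on all arrays, was at -1.69, -1.74, -1.18 and -2.08 in old sedentary and 0.61, -0.33, 0.76 and 0.40 in adult sedentary muscle. The groups did not overlap, and the difference was -2.03 ± 0.42 (adjusted p = 0.00886). This call was lost without old sedentary 1 and 2 (difference -1.99, adjusted p = 0.121). The 3 probes A_30_P01025702 and A_30_P01030518 in chr4:119963954-119976499 (F) and A_30_P01030427 in chr4:119967625-119978325 (F), also fell, by 1.58 ± 0.33, 2.02 ± 0.60 and 1.79 ± 0.43 on the log2 scale (adjusted p = 0.00886, 0.0345 and 0.0165). They lie in overlapping intervals and count as 1 region. The call of A_30_P01030427 was lost without old sedentary 1 or 2 (adjusted p = 0.059 and 0.0562), and that of A_30_P01030518 without adult sedentary 1, 3 or 4 or old sedentary 1 or 2 (adjusted p from 0.0692 to 0.124). A_30_P01025702 was at -3.42, -2.92, -1.80 and -1.53 in old sedentary muscle, at -0.75, -0.88, -0.81 and -0.92 in adult sedentary muscle, and between -2.79 and -2.03 in both trained old groups. It was low in all 3 old groups and without overlap with adult sedentary muscle. No call of this region held without old sedentary 1 and 2. The differences of A_30_P01025702, A_30_P01030518 and A_30_P01030427 were then -0.825, -1.02 and -0.92 (adjusted p = 0.212, 0.476 and 0.302). A_30_P01030518 and A_30_P01030427 were most like Foxo6, a forkhead transcription factor gene (r = 0.96 and 0.93).

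A bright member, A_30_P01018525 in chr14:43929100-43945100 (R), was at 2.43, 2.01, 2.92 and 0.87 in old sedentary muscle and at 3.96, 2.89, 4.09 and 3.40 in adult sedentary muscle. The highest old array (2.92) overlapped the lowest adult one (2.89), and the difference was -1.53 ± 0.34 (adjusted p = 0.0115). The call was lost without old sedentary 1 and 2 (difference -1.69, adjusted p = 0.0958). Its profile was most like Snhg17, a host gene of small nucleolar RNAs (r = 0.97).

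The members that rose with age included 4 probes in a part of chromosome 1. A_30_P01029479 in chr1:85117750-85129200 (F) was at -0.01, -1.18, -3.05 and -2.98 on old sedentary 1 to 4 and at -6.14, -4.77, -5.93 and -6.49 on adult sedentary 1 to 4. All old arrays were above background and no adult sedentary array was. The difference was 4.03 ± 0.61 (means -1.81 ± 1.48 and -5.83 ± 0.74, n = 4 each, adjusted p = 0.00242), or at least 5.60-fold. A_30_P01022910 in chr1:85304494-85305390 (R) was higher by 3.46 ± 0.59 (adjusted p = 0.00492) and A_30_P01027120 in chr1:87343550-87362900 (F) by 3.32 ± 0.60 (adjusted p = 0.00539). A_30_P01019184 in chr1:85036677-85038530 (R), above background on all arrays, was higher by 1.91 ± 0.41 (adjusted p = 0.0107).

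On each of these 4 probes old sedentary 1 was the highest array and old sedentary 2 the next. The B and plasma cell score had the same order (6.12 and 4.74, against 2.43 and 1.95 on the other 2). Within old sedentary muscle the scores for T and NK cells and for adipocytes were also highest on array 1 and next on array 2. The order therefore does not tell these cell types apart. A_30_P01029479 was most like Pou2af1, a transcriptional coactivator gene of B cells (r = 0.95), and A_30_P01022910 and A_30_P01027120 were most like Csprs, a component of the Sp100-rs repeat (r = 0.97 for each). Csprs belongs to a repeated family, so probes there may bind several copies, and which copies gave the signal was not tested. Of the defining B cell genes, Cd79a was above background on 3 of 23 arrays and Ms4a1 on 8. Without old sedentary 1 and 2 the 4 differences were 2.82, 2.34, 2.20 and 1.03, and none passed the threshold (adjusted p = 0.0611, 0.105, 0.124 and 0.256). The part of lymphoid cells, adipocytes or other cells in these values was not tested.

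Other members rose with age as well. A_30_P01020075 in chr9:14460976-14488051 (F) was at -1.03, -0.39, -1.09 and 1.18 in old sedentary and -2.84, -0.80, -2.68 and -3.20 in adult sedentary muscle, where adult sedentary 2 overlapped the old arrays. It was higher by 2.05 ± 0.49 (adjusted p = 0.0166), a call that was lost without adult sedentary 1, 3 or 4 (adjusted p = 0.0611, 0.0521 and 0.0568). It was most like Ect2, a cytokinesis gene (r = 0.97), and old sedentary 4 and adult sedentary 2 also had the highest cell cycle scores of their groups (4.41 and 1.86). A_30_P01024957 in chr14:33923944-34003394 (R) was higher by 2.07 ± 0.42 (adjusted p = 0.00813), with old sedentary 1 highest at 0.58. It was most like the kinesin gene Kif21b (r = 0.96). The cell cycle score was 1.54 on old sedentary 1 and 1.92, 1.28 and 4.41 on old sedentary 2 to 4. Neither age call held without old sedentary 1 and 2. The differences of A_30_P01020075 and A_30_P01024957 were then 2.42 and 1.475 (adjusted p = 0.0938 and 0.163).

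The number of members called with age depended on single arrays. It was 134, 199 and 234 without adult sedentary 1, 3 or 4, 208, 172, 1529 and 498 without old sedentary 1, 2, 3 or 4, and 14 without both old sedentary 1 and 2; limma on the 8 arrays of both groups alone called 10, and a model with slide as an added term called 0 (781 at an unadjusted p under 0.05; median difference -0.30).

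Old HIIT muscle had higher signal than old sedentary muscle at a small share of interval probes, and 38 of the 129 called were above background on every array. Between old HIIT and old sedentary muscle 128 members were higher and 1 lower (2.07%), against 0.822% of all features (0.807% higher, 0.0147% lower). Among members above background on all arrays 38 were higher and none lower (1.2%), against 0.347% of features of that kind (0.342% higher, 0.00519% lower), and by limma 129 of the 6241 members were called in all. The median difference was 0.26 for members, 0.09 for all features and 0.05 for coding features. For each of the 129 called probes the arrays of both groups did not overlap. Overlap was not counted over all features, so this only describes the called probes.

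A_30_P01030101 in chr4:140609589-140614789 (F), described above for age, was at -1.31, -2.55, -2.37 and -1.97 on old HIIT 1 to 4 against -4.67 to -4.56 in old sedentary muscle. Every old HIIT array was at or above the level of the adult sedentary group's lowest array (-2.76). The difference was 2.55 ± 0.29 (means -2.05 ± 0.55 and -4.60 ± 0.05, n = 4 each, adjusted p = 0.000453), or at least 4.14-fold, and 2.58 without old sedentary 1 and 2 (adjusted p = 0.00616). In old MICT muscle it was at -1.82, -2.25, -2.80 and -2.58, a difference of 2.24 ± 0.29 from old sedentary (adjusted p = 0.00106).

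A_30_P01025448 in chr7:99879368-99889978 (F) was at -2.85, -3.72, -3.59 and -2.98 in old HIIT muscle and at -6.03, -5.40, -5.33 and -6.19 in old sedentary muscle, where no array was above background. It was higher by 2.46 ± 0.39 (means -3.28 ± 0.44 and -5.74 ± 0.44, adjusted p = 0.00544), or at least 1.77-fold, and it too was most like Gabre (r = 0.93). A_30_P01021095 in chr14:65720392-65769859 (F) was at -3.64, -3.48, -4.09 and -3.80 in old HIIT and -5.46, -6.41, -5.46 and -6.22 in old sedentary muscle. Its groups did not overlap, and the difference was 2.14 ± 0.34 (means -3.75 ± 0.26 and -5.89 ± 0.50, adjusted p = 0.00563), or at least 1.28-fold. Since the old sedentary values were not above background, the fitted differences of these dim probes are not bounds. Neither call held without old sedentary 1 and 2. The differences of A_30_P01025448 and A_30_P01021095 were then 2.47 and 2.09 (adjusted p = 0.0545 and 0.056).

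Among members above background on all arrays, A_30_P01031379 in chr14:65205583-65205906 (R) was at -1.97, -2.36, -2.27 and -1.96 in old HIIT and -3.42, -4.004, -2.83 and -3.68 in old sedentary muscle. The groups were separate, and the difference was 1.35 ± 0.23 (adjusted p = 0.00862). A_30_P01025713 in chr11:95644899-95658549 (R) was at -2.22, -2.32, -2.53 and -2.27 in old HIIT and -3.64, -3.74, -3.06 and -3.72 in old sedentary muscle, a difference of 1.21 ± 0.21 (adjusted p = 0.00802). Neither call held without old sedentary 1 and 2. The differences of A_30_P01031379 and A_30_P01025713 were then 1.12 and 1.05 (adjusted p = 0.127 and 0.129).

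The 1 member that fell was A_30_P01032701 in chr9:82991830-82999937 (F), which was above background on just 3 arrays, 2 of them old sedentary. It thus met the detection rule mainly through the group where it was high, so its test is no independent support for a difference. It was at -3.99, -4.58, -0.33 and -1.23 on old sedentary 1 to 4 and between -6.45 and -5.78 on old HIIT arrays, a difference of -3.53 ± 0.71 (means -6.06 ± 0.31 and -2.53 ± 2.07, adjusted p = 0.021), or at least 3.44-fold lower. Old sedentary 3 and 4 carried the signal. A_30_P01032701 was most like Gzmb, a granzyme of cytotoxic lymphocytes (r = 0.78), a correlation that rests on few arrays with signal. For the listed T and NK genes, scores fell from 3.32 on old sedentary 1 through 2.81 and 1.04 to 0.49 on old sedentary 4. The part of lymphocytes in this signal was not tested. The call was lost without old sedentary 4, old HIIT 1 or old HIIT 4 (differences -3.10, -3.61 and -3.50; adjusted p = 0.0787, 0.0674 and 0.068).

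The count of 129 was also set by few arrays. It was 59, 40, 456 and 45 without old sedentary 1, 2, 3 or 4, 22, 82 and 29 without old HIIT 1, 3 or 4, 81 without adult HIIT 2, and 17 without both old sedentary 1 and 2; limma on the 8 arrays of both groups alone called 0 (1174 at an unadjusted p under 0.05; smallest adjusted p = 0.232).

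MICT in old mice gave the largest number of called members, nearly all of them higher. Between old MICT and old sedentary muscle 1441 members were higher and 154 lower (25.6%), against 28.8% of all features, with 20.7% of all features higher and 8.16% lower. Among members above background on all arrays 834 were higher and 64 lower (28.4%), against 30.7% of features of that kind (23.4% higher, 7.28% lower). The share called was thus below the background, and coding features were called at 32.2%. The median difference was 0.37 for members, 0.21 for all features and 0.14 for coding features. Called probes were higher in 924 intervals and lower in 104. Of 1579 named sets with at least 2 tested probes, 251 had at least 2 higher, 34 at least 2 lower and 4 had calls both ways. Scaled on the members' own median, the alternative chosen after seeing the data, 495 were higher and 296 lower, so higher calls were 62.6% in place of 90.3%.

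In 3 of the 5 intervals with the most members, more probes were called higher than not. In chr17:26911397-26917047 all 16 tested probes had positive differences, from 0.57 to 2.24 with a median of 0.90, and 12 were called higher. In chr16:43623581-43642715 11 of 19 were called higher (median 0.66, range 0.23 to 1.1), and in chr11:95627874-95640824 10 of 18 (median 0.59, range -0.46 to 0.98). In chr7:99879368-99889978 just 2 of 17 were called and in chr11:3538125-3554450 just 2 of 15. Over all features 20.7% were higher and 8.16% lower in this comparison, so these last intervals lay below that share. No probe of these 5 intervals was called lower in old MICT muscle, and probes of 1 interval share a target and are not replicates.

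Many of the largest rises were carried by old MICT 1 and 2. A_30_P01017987 in chr5:107503800-107515575 (R), above background on all arrays, was at 3.04, 2.90, 0.21 and 1.14 on old MICT 1 to 4 and at -0.56, -0.30, -0.05 and -1.57 on old sedentary 1 to 4. The groups did not overlap, and old MICT 3 was close to the highest old sedentary array. The difference was 2.44 ± 0.60 (means 1.82 ± 1.38 and -0.62 ± 0.66, n = 4 each, adjusted p = 0.00878). Another probe of the interval, A_30_P01022429, gave 2.84 ± 0.72 (adjusted p = 0.00997). Both were most like Rora, a nuclear receptor gene of the circadian clock (r = 0.96 for each). Without old sedentary 1 and 2 the differences were 2.63 and 3.04, and neither passed the threshold (adjusted p = 0.0688 and 0.0742).

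A_30_P01019459 in chr5:74487385-74497428 (R) was at 1.13, -0.14, -2.59 and -1.84 in old MICT muscle and -3.33, -3.31, -2.53 and -3.48 in old sedentary muscle, so old MICT 3 was below old sedentary 3. It was higher by 2.30 ± 0.59 (adjusted p = 0.0102). The call was lost without old sedentary 1 and 2 (difference 2.15, adjusted p = 0.103). A_30_P01018760 in chr15:79764481-79809909 (R) was at 4.03, 3.43, 1.98 and 1.90 in old MICT muscle and 0.86, 0.80, 1.60 and 0.81 in old sedentary muscle, a difference of 1.81 ± 0.44 (adjusted p = 0.00786). This call, too, was lost without old sedentary 1 and 2 (difference 1.63, adjusted p = 0.0963). A_30_P01033660 in chr8:70719179-70719686 (F) was at -1.72, -2.79, -3.52 and -3.87 in old MICT muscle and -5.35, -5.57, -5.55 and -5.69 in old sedentary muscle, where it was not above background. Its difference was 2.56 ± 0.43 (means -2.97 ± 0.95 and -5.54 ± 0.14, adjusted p = 0.00226), or at least 2.20-fold, and 2.64 without old sedentary 1 and 2 (adjusted p = 0.0231).

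**Figure D4:**
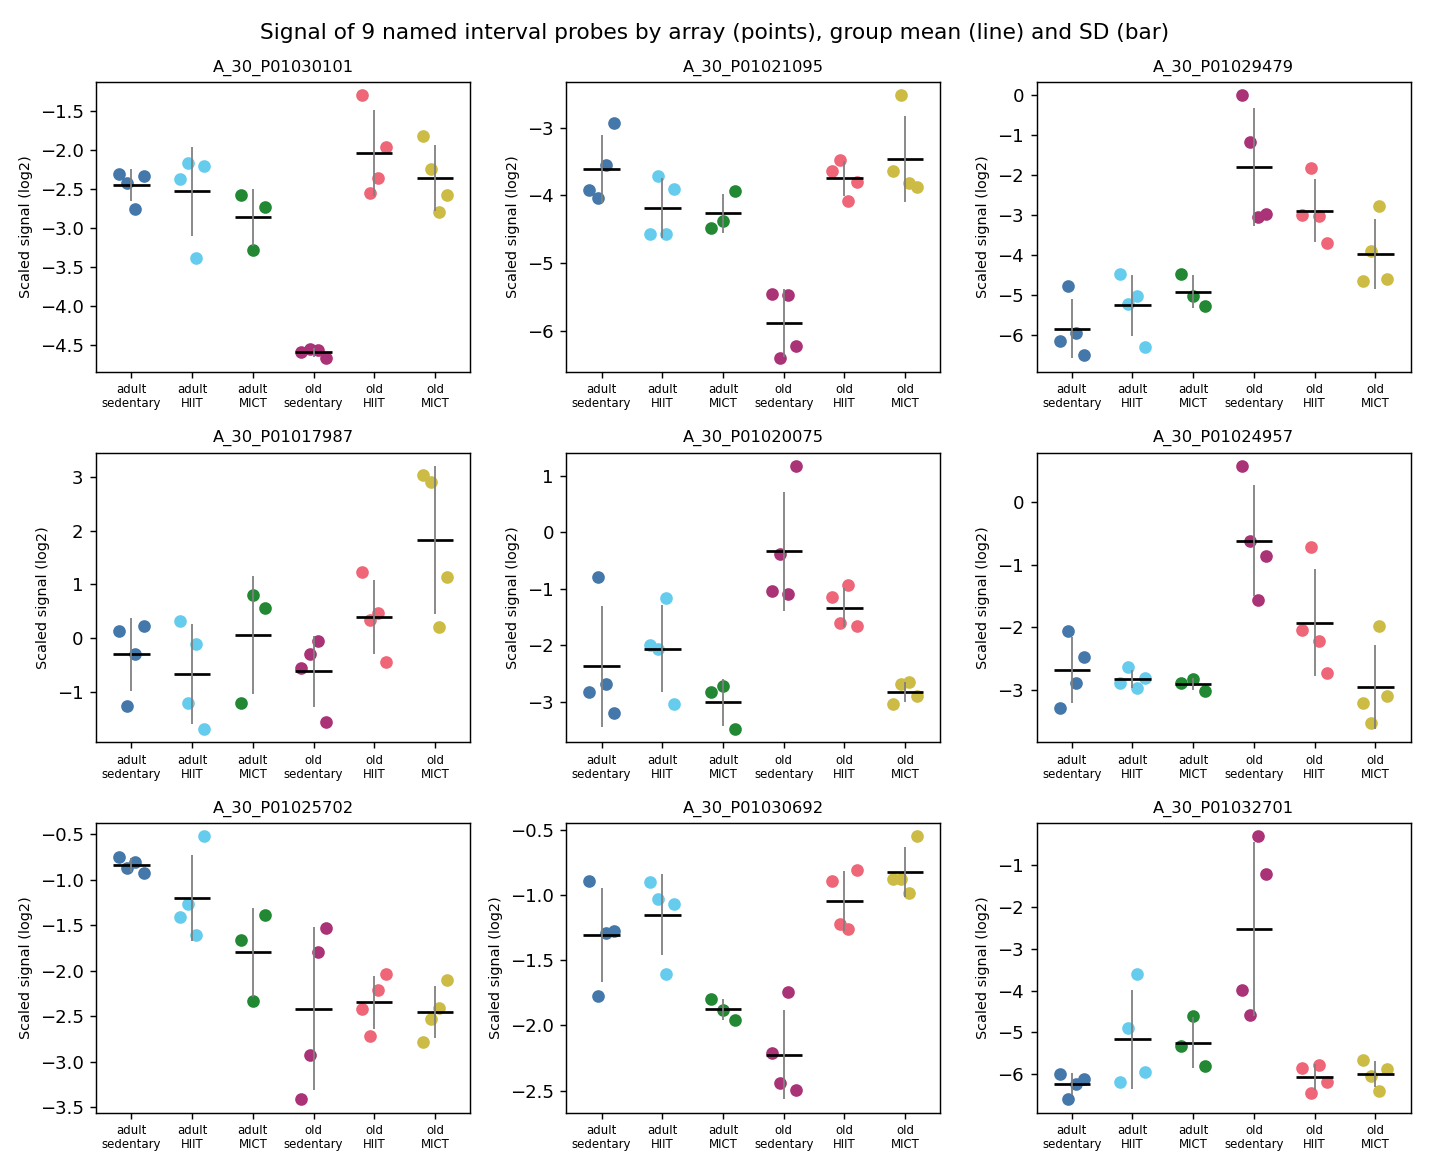
Log2 signal (vertical axis, relative to each array's 75th percentile) of 9 named interval probes by group (horizontal axis), with 1 point per array, a line at the group mean and a bar for the SD. A_30_P01030101 lies between -4.67 and -4.56 on all 4 old sedentary arrays and at -3.38 or above on all others.

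The named members that fell in old MICT muscle included probes most like cell cycle genes. A_30_P01020075 was at -3.04, -2.69, -2.66 and -2.91 in old MICT muscle against -1.09 to 1.18 in old sedentary muscle, with no overlap. The difference was -2.49 ± 0.49 (adjusted p = 0.0036), and -2.87 without old sedentary 1 and 2 (adjusted p = 0.0241). Another probe of that interval, A_30_P01025009, fell by 2.53 ± 0.47 (adjusted p = 0.00296) and was most like Trip13, a gene of the mitotic checkpoint (r = 0.95). A_30_P01026240 in chr15:77164450-77201325 (F) was at -0.98, -1.36, -1.18 and -0.88 in old MICT muscle and 0.45, 0.28, 0.21 and 1.78 in old sedentary muscle. It fell by 1.78 ± 0.31 (adjusted p = 0.00259) and was most like Tmsb10, an actin-binding thymosin gene (r = 0.97). A_30_P01024957 fell by 2.34 ± 0.42 (adjusted p = 0.00266), a call that was lost without old sedentary 1 and 2 (difference -1.75, adjusted p = 0.0531). On old MICT arrays the cell cycle score was between -1.03 and -0.12 and the B and plasma cell score between -0.10 and 0.30, and their part in these values was not tested.

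The count of 1595 was 1048 and 871 without old sedentary 1 or 2, 944 and 961 without old MICT 1 or 2, and 161 without both old sedentary 1 and 2. Limma on the 8 arrays of both groups alone called 0 (1949 at an unadjusted p under 0.05; smallest adjusted p = 0.0526).

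Both kinds of training were compared directly in old mice, where the groups share slide 3. No member was called between old HIIT and old MICT by limma (0% of all features), and the members' smallest adjusted p was 0.237. An unadjusted p below 0.05 was reached by 467 of 6241 members and by 4298 of all 27246 features. The median difference was -0.08 for members and -0.09 for all features. The member with the smallest p above background on all arrays, A_30_P01027948, was lower in old HIIT muscle by 0.90 ± 0.21 (log2; means -2.62 ± 0.22 and -1.72 ± 0.44, n = 4 each, adjusted p = 0.237). Without old MICT 3, 1 member was called.

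In adult mice no member was called for either training. HIIT, on the same slide as adult sedentary, gave 0 calls by limma (0% of all features), with 0.493 as the members' smallest adjusted p. Leaving out adult HIIT 4 gave 1 call. For HIIT 415 of 6241 members and 1460 of all 27246 features had an unadjusted p below 0.05. MICT gave 0 calls (0% of all features). For MICT 221 of 6241 members and 625 of all 27246 features had an unadjusted p under 0.05. The members' median difference was -0.08 for HIIT and -0.03 for MICT. A_30_P01019382 in chr8:129102060-129109035 had the smallest p for HIIT, at -2.08, -2.39, -2.69 and -1.89 in adult HIIT and -1.22, -1.59, -1.22 and -1.37 in adult sedentary muscle. The groups did not overlap and the difference was -0.91 ± 0.18 (adjusted p = 0.493).

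The response to training was then compared between ages as an interaction, the old response minus the adult response. For HIIT no member was called by limma (0% of all features). An unadjusted p below 0.05 was reached by 1150 of 6241 members and by 3293 of all 27246 features. The members' smallest adjusted p was 0.0607, at A_30_P01030101 (2.63 ± 0.41), and 2 members were called without adult HIIT 4. For MICT 134 members had a higher response in old mice and 2 a lower one (2.18%), against 1.03% of all features (0.899% higher, 0.128% lower). Of those above background on all arrays 50 were higher (1.58%), against 0.627% of features of that kind (0.544% higher, 0.083% lower). The median interaction for MICT was 0.39 for members and 0.21 for all features. Old sedentary and adult MICT, the groups that enter with a negative sign, are both on slide 2, so slide and interaction cannot be told apart.

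A_30_P01030692 in chr4:131737612-131738100 (R) showed the pattern with little spread. It was at -2.21, -2.44, -1.74 and -2.50 in old sedentary, -0.88, -0.88, -0.99 and -0.55 in old MICT, -0.89, -1.78, -1.29 and -1.28 in adult sedentary and -1.80, -1.88 and -1.96 in adult MICT muscle. Both groups of slide 2 were thus lower than their counterparts, with a small overlap between adult sedentary 2 and old sedentary 3. The interaction was 1.97 ± 0.30 (adjusted p = 0.00947), and 1.86 without old sedentary 1 and 2 (adjusted p = 0.0357). A_30_P01029982 in chr13:99870660-99877535 (F) had an interaction of 3.55 ± 0.58 and A_30_P01030118 in chr4:3406175-3443875 (F) one of 3.20 ± 0.51 (adjusted p = 0.00947 for each), and neither was above background in old sedentary muscle.

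The 136 interactions called for MICT were 17, 348, 45 and 48 without adult sedentary 1, 2, 3 or 4, 82 and 22 without adult MICT 1 or 3, 74, 28 and 661 without old sedentary 1, 2 or 3, and 27, 27, 294 and 69 without old MICT 1, 2, 3 or 4. Without both old sedentary 1 and 2 they were 26, and limma on the 4 groups alone called 1.

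Long noncoding RNAs known by name were set beside the intervals. Of 54 listed genes 32 were on the array and 29 were tested. Between old MICT and old sedentary muscle 8 were higher and 1 lower, where 20.7% of all features were higher and 8.16% lower, so the share called was near the background. The median difference was 0.39 against 0.21 for all features. Lncpint was at 3.97, 4.05, 2.77 and 1.80 on old MICT 1 to 4 and 2.01, 1.26, 2.18 and 1.05 on old sedentary 1 to 4, a difference of 1.52 ± 0.44 (adjusted p = 0.0168). Snhg12, a small nucleolar RNA host gene, was at 4.55, 3.28, 1.62 and 1.83 in old MICT muscle and 1.82, 1.47, 1.34 and 1.45 in old sedentary muscle (1.30 ± 0.44, adjusted p = 0.0334). In both genes old MICT 1 and 2 were high and the groups overlapped through old MICT 3 or 4. Terc, the telomerase RNA component, was higher by 1.04 ± 0.25 (adjusted p = 0.00744), and Mirg, an imprinted transcript that hosts microRNAs, fell by 1.17 ± 0.34 (adjusted p = 0.0168). With age 2 of the 29 fell, where 8.49% of all features did: Peg13, an imprinted gene, by 0.52 ± 0.16 (adjusted p = 0.0377) and Dleu2 by 0.46 ± 0.15 (adjusted p = 0.0481). None of the 29 was called in the other 6 comparisons by limma. H19 was at 4.66, 4.95, 6.52 and 7.02 on old sedentary 1 to 4 and between 6.07 and 7.19 in adult sedentary muscle, so 2 old arrays were below every adult one and the difference did not pass the test (adjusted p = 0.189).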

How the data were processed

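Total RNA of gastrocnemius was labelled with Cy3 from 200 ng and hybridised to 1-colour Agilent arrays, per the labels' protocols. Per the file headers, the authors' scanner output was made with Agilent Feature Extraction 12.0.3.1, and the deposited intensity of each spot is its processed signal, background subtracted and detrended within the array. A deposited series table holds a score per spot, used as an alternative only; how it was made is not stated, and its correlation with the log10 signal was at least 0.9995 on each array.

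Control spots and spots marked as outliers were left out, and spots of a probe were averaged as log2 intensity computed from the deposited signal. Each array's 75th percentile was subtracted, taken over the 55681 probes without the 283 dropped for a spot marked as an outlier. Of 6258 members 17 had such a spot and were not tested. Probes above background on at least 3 arrays were tested, with 1 probe per gene symbol (highest mean). Symbols came from a RefSeq table matched by accession (28331 of 29786). Group means were fitted in R 4.3.3 using limma 3.58.1 and an intensity trend, over 27246 features, and the fit was tested on simulated data.

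Named were, per comparison, up to 8 largest rises and falls among called members whose groups did not overlap (1 per interval; with fewer than 3 calls, the 3 smallest p), up to 5 among members above background on all arrays, the 10 brightest, the 5 intervals with most members, the 3 best correlated across suffixes, the most similar gene of each, and listed noncoding RNAs. Of these, the text describes a selection. Intervals on chromosome 18 were counted and not named. Members and lists were chosen with earlier results of these data known. Alternatives to background correction, scaling, filters, variance model, samples and slide were run.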

Additional observations from a re-analysis of the deposited data

Results flagged for a closer look

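A sample stood far from the others of its group in 12 of 183 combinations of a named measure and a group of 4 arrays, where chance gives about 5%. Adult sedentary 2 was the array in 4 of the 12. It was at -4.15 for A_30_P01028951, 0.11 for A_30_P01026240, -4.61 for A_30_P01029982 and -4.59 for A_30_P01027752, and this array also had the highest cell cycle score of its group (1.86).

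Old sedentary 3 was at -3.06 for A_30_P01025713, with the other arrays from -3.74 to -3.64, and at 1.61 for A_30_P01018760, with the others from 0.80 to 0.86. Old sedentary 4 was at 1.78 for A_30_P01026240, where the others lay between 0.21 and 0.45. Adult HIIT 4 was at -6.23 for A_30_P01022315 in chr1:34735032-34781146, a probe at -2.75 to -2.30 on the other 3 adult HIIT arrays and, like adult HIIT 4, under -5.60 on every array of the other groups. Adult HIIT 3 was at -3.38 for A_30_P01030101 and had a median deviation of all tested members of -0.335 from the adult sedentary mean, against -0.011 to 0.025 on the other 3 arrays. Old MICT 1 was at -3.03 for A_30_P01020518 (others -1.74 to -1.51), and old HIIT 4 was at -6.38 for A_30_P01020280 (others at or above -6.14).

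The response to MICT differed between old and adult mice, as an interaction in limma, at 136 members (2.18%), against 1.03% of all features. Leaving out 1 array at a time gave 17 to 661 members. Among the named members, the old response exceeded the adult one by 3.61 for A_30_P01024389, 3.55 for A_30_P01029982, 3.20 for A_30_P01030118, 3.08 for A_30_P01021095, 2.93 for A_30_P01027752, 2.90 for A_30_P01018187, 2.87 for A_30_P01033660 and 2.79 for A_30_P01031139. No old sedentary array was above background for these 8 probes, and no old MICT array either for A_30_P01018187, so these fitted values rest on signals near background and are not bounds. Those above background on all arrays were A_30_P01030692 at 1.97, A_30_P01033414 at 1.94, A_30_P01028213 at 1.88, A_30_P01026523 at 1.81 and A_30_P01017807 at 1.80. The old response was lower by -4.45 for A_30_P01032701 and by -2.20 for A_30_P01020902. Of these, A_30_P01032701 was above background on just 3 arrays, 2 of them old sedentary, so it met the detection rule mainly through that group. Old sedentary and adult MICT share slide 2, so slide and interaction cannot be told apart.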

How the results depend on the processing

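The number of members called moved by more than 1.5 times in these cases, given for old HIIT against old sedentary (129), old MICT against old sedentary (1595), old against adult sedentary (869), the HIIT interaction (0) and the MICT interaction (136). Quantile normalization gave 65 for old HIIT. Normexp background correction gave 0 for old HIIT (713 at an unadjusted p under 0.05), 618 for old MICT, 290 for age and 0 for the MICT interaction (820). No filter on dim probes gave 56 for old HIIT, 471 for age and 39 for the MICT interaction. Testing only features above background on all arrays gave 12, 956, 523 and 13 for old HIIT, old MICT, age and the MICT interaction, of 3162 members. Requiring every array of a group gave 2 for the HIIT interaction. Without the intensity trend old HIIT gave 218 and the HIIT interaction 15. Array weights gave 64 for adult HIIT, 2 for adult MICT, 1826 for age, 33 for the HIIT interaction and 787 for the MICT interaction. The compared groups alone gave 0, 0, 10 and 1 for old HIIT, old MICT, age and the MICT interaction. The deposited score gave 327 for old HIIT and 31 for the HIIT interaction. A fold of at least 1.5 (limma's treat) gave 1, 19, 6 and 0 (476 at an unadjusted p under 0.05). Without old sedentary 1 and 2 the counts were 17, 161, 14 and 26, and 1 for the HIIT interaction. An additive slide term gave 0 for age. Scaling on the member median, chosen after seeing the data, gave 39, 791, 283 and 29, and 1 for the HIIT interaction; it moved the median age difference of all features from -0.16 to 0.08. The cause of these moves was not tested, except that fewer features or arrays enter by construction.

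Leaving out 1 array at a time gave 22 to 456 for old HIIT, 871 to 2024 for old MICT, 134 to 1529 for age, 17 to 661 for the MICT interaction, 0 to 2 for the HIIT interaction, 0 to 1 for adult HIIT and for old HIIT against old MICT, and 0 for adult MICT. The rule gave 9482 members with at least 1 array and 3172 with all 23. A_30_P01020727 was the named result whose sign turned, from -0.80 in adult MICT against adult sedentary to 0.23 with an additive slide term, and it was called in neither.

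Replicate numbers did not pair the arrays (median correlation of same-numbered deviations 0.04, range -0.41 to 0.37). With the replicate block, the counts were 139 for old HIIT, 1644 for old MICT, 931 for age, 179 for the MICT interaction and 1 for the HIIT interaction, and 78 of 79 named calls were kept.

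Of those 79 calls 3 were kept with the compared groups alone, 9 at a fold of at least 1.5, 19 without old sedentary 1 and 2, 34 with normexp and 64 with member-median scaling. Members near background carry bounds only.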

Other observations

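Neighbouring intervals on the same chromosome, joined where the gap was at most 50 kb, formed runs, which were looked at after the data had been seen. The run with the most tested members was chr11:95561419-95658549, with 33 probes in 6 intervals, of which 26 were above background on all arrays. Of the 33, 16 were called higher in old MICT than in old sedentary muscle and 8 lower in old than in adult sedentary muscle, with median differences of 0.63 and -0.58. Over all features 20.7% were higher and 8.49% lower in these comparisons. The next, chr6:30983012-31293337, held 31 probes in 9 intervals, of which 20 were higher in old MICT muscle (median 0.97) and 13 lower with age (median -0.64). In chr13:94180737-94203935, with 28 probes in 11 intervals, 17 were higher in old MICT muscle (median 0.89) and 10 lower with age (median -0.60). No probe of these 3 runs was called the other way in either comparison. The following runs by size had fewer calls: of 25 probes in chr19:5771425-5848475, 3 were higher in old MICT muscle and 2 lower with age, and of 25 in chr17:46972160-47023558, 4 and 0. Both comparisons use the same old sedentary arrays, so 1 low group appears in each.

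The share of interval probes that were members differed between chromosomes, from 25.8% of 736 probes on chromosome 9 to 46.3% of 322 on chromosome 19. On chromosome 7, 32.1% of tested members were higher in old MICT than in old sedentary muscle, and on chromosome 18, 16.9% were. These were the highest and lowest shares of the chromosomes, against 23.1% of all tested members and 20.7% of all features. These shares are descriptions, since probes of 1 interval are not independent.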
